A study of Mus musculus with 22 samples.

Results

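The chromatin of T-bet- cDC2s was compared with that of cDC1s by ATAC-seq, which marks open DNA by the sites a transposase can reach. All windows of 150 bases around the summits of accessible peaks were taken, as counted in 2 libraries of T-bet- cDC2s and 2 of cDC1s, which are 4 of the 6 ATAC-seq libraries and of the 22 libraries of the series. Of 177956 windows, 166547 held enough reads to be tested and 11409 did not. The study sorted classical dendritic cells by a reporter of the transcription factor T-bet and measured their RNA and chromatin. All groups came from Tbx21RFP-cre mice, in which RFP and Cre are knocked in at *Tbx21* on both alleles, so T-bet- and T-bet+ cells were separated by RFP and cDC1s by XCR1. The mice were 6 to 10 weeks old and untreated as far as the labels say, and their spleens were pooled. The study as a whole used mice of both sexes. For each ATAC-seq library 50000 cells were sorted. The T-bet- gate takes cDC2s without RFP and is not a single clone or line. The 2 T-bet+ cDC2 libraries and the 9 spleen RNA libraries, 3 of each subset, were used beside the comparison.

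cDC1s and cDC2s are the main classes of conventional dendritic cells. cDC1s need the factors IRF8 and BATF3, take up dead cells and present their antigens to CD8 T cells. cDC2s carry SIRPα and CD11b, use IRF4, and present mainly to CD4 T cells. IRF8 and IRF4 bind DNA weakly alone and are recruited with ETS factors such as PU.1 at composite elements or with BATF at AP-1-IRF elements. Open chromatin at such elements, often far from gene starts, is a usual mark of a cell's regulatory programme.

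The windows below are examples and do not stand for the called sets. They are printed on the plus strand of mm10, 5′ to 3′, with the match to 1 motif in capitals. Other matches are left in small letters. *Usp8* also holds a Runx match, *Lemd1* the E-box CAGGTG, *Mapkapk3* an AP-1 match, and *Osbpl8* NF-Y, ROR and Runx matches. IRF response elements and ETS-IRF composites were found in 11.3% and 14.6% of windows higher in cDC1s. Those of *Sirpa*, *Mapkapk3*, *Osbpl8* and *St8sia1* are among the windows with the largest excess in T-bet- cDC2s, and those of *Usp8* and *Lemd1* among the largest in cDC1s. The capitals mark C/EBP matches (TTGCNNAAN) in *Sirpa*, at chr2:129592023-129592172, in *Mapkapk3*, at chr9:107263992-107264141, and in *St8sia1*, at chr6:142952688-142952837. They mark an AP-1 match (TGANTCA) in *Osbpl8*, at chr10:111127625-111127774. They mark an IRF response element (GAAANNGAA) in *Usp8*, at chr2:126731329-126731478, and an ETS-IRF composite (GGAANNGAA) in *Lemd1*, at chr1:132216474-132216623.
Sirpa: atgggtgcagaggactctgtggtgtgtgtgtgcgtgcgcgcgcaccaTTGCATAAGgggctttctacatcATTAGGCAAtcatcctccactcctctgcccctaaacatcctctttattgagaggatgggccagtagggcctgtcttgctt
Mapkapk3: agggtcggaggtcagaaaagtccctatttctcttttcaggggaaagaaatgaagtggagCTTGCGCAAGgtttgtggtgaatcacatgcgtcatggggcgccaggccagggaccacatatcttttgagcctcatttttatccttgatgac
St8sia1: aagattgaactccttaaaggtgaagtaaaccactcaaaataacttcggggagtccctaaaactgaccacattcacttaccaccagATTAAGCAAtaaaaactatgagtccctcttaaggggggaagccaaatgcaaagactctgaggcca
Osbpl8: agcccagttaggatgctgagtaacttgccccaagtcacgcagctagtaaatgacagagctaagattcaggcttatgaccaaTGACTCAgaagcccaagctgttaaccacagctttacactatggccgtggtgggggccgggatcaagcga
Usp8: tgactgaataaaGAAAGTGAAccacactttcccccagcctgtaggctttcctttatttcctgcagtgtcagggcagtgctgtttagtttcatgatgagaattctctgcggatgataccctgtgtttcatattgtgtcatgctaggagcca
Lemd1: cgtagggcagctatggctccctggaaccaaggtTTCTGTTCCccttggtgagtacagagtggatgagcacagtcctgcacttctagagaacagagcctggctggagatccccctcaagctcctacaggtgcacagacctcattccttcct

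A second set shows windows of cDC1 genes. The leading window of *Xcr1*, the one with its smallest p, lies at chr9:123869367-123869516 and holds a PU.1 match (GAGGAAGT). Although *Xcr1* is a cDC1 gene, this window was more open in T-bet- cDC2s. The windows of *Cd8a*, at chr6:71359807-71359956, and *Tlr3*, at chr8:45441147-45441296, were more open in cDC1s and hold an IRF response element; these 2 were chosen after their values were seen. None of the 9 printed windows overlaps an annotated exon, and a match is a description of letters, not evidence of binding.
Xcr1: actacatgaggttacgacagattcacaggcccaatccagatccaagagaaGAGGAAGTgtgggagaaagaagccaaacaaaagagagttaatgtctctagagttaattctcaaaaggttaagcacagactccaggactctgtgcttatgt
Cd8a: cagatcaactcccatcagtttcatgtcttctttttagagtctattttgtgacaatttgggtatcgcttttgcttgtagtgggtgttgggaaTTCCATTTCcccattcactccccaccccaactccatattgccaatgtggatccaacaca
Tlr3: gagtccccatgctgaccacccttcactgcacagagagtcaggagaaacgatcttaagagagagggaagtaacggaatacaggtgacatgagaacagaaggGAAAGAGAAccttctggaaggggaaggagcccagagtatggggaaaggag

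Windows held 8348196 and 9826752 reads in the T-bet- cDC2 libraries and 7969528 and 7270164 in the cDC1 libraries. The Spearman correlation between libraries across windows was 0.89 within each of these subsets and 0.67 to 0.69 between them. Counts are given as normalized counts, that is reads scaled to a common library size by the TMM method of edgeR, first for T-bet- cDC2 replicates 1 and 2 and then for cDC1 replicates 1 and 2. Log2 fold changes are T-bet- cDC2 over cDC1, with their standard error. A window was called where its log2 fold change exceeded 0.5 in size and its p, from the quasi-likelihood test of edgeR and adjusted by Benjamini-Hochberg over all tested windows, was under 0.01. The replicates are separate libraries, but no label says whether their mice were separate, so p-values measure the spread between these libraries.

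T-bet- cDC2s and cDC1s differed at 29773 of the tested windows. Of these, 12191 windows (7.32% of those tested) in 9113 peaks were higher in T-bet- cDC2s, and 17582 (10.6%) in 13732 peaks were higher in cDC1s. Among called windows the differences were larger on the cDC1 side. The median log2 fold change was 1.42 among windows higher in T-bet- cDC2s and -2.04 among those higher in cDC1s. Of the former 21.7% differed by more than 4-fold, and of the latter 51.9%. The sets also differed in read count, with a median over the 4 libraries of 59.6 normalized counts in the former and 32.2 in the latter. What part read count has in these folds was not tested. The median window higher in cDC1s held 10.9 and 11.6 normalized counts in the T-bet- cDC2 libraries and 49.2 and 55.2 in the cDC1 libraries. The median window higher in T-bet- cDC2s held 87.9 and 88.2 against 30.3 and 29.9. So the typical window higher in cDC1s held few reads in T-bet- cDC2s, while the typical window higher in T-bet- cDC2s still held reads in cDC1s. The counts depended on single libraries. Without cDC1 replicate 2 they were 6734 and 10912, and the T-bet- count was 7254 without cDC1 replicate 1 and 8013 without T-bet- cDC2 replicate 1.

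Counted over whole peaks, 9277 of 73293 peaks (12.7%) were higher in T-bet- cDC2s and 13157 (18%) in cDC1s. Of these, 7695 and 12113 held a window called the same way. Leaving out peaks with windows of both kinds, 0 were called against their windows. Whole peaks share reads with their windows, so the peak calls are not independent of the window calls. Without cDC1 replicate 2 the peak counts were 5173 and 8157, and the T-bet- count was 6014 without cDC1 replicate 1. Few peaks held called windows of both kinds, which a peak with a single called window cannot do. Windows higher in T-bet- cDC2s only were found in 9046 peaks, windows higher in cDC1s only in 13665, and windows of both kinds in 67. Still, few peaks were called along their whole length. Of 6457 peaks with several tested windows and at least 1 higher in T-bet- cDC2s, all windows were called in 648. Of 7210 such peaks on the cDC1 side, all were called in 1614. A window that was not called need not be unchanged.

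The T-bet+ cDC2 libraries, which enter the fit but not the comparison, lay close to T-bet- cDC2s in the medians of both sets. The median window higher in T-bet- cDC2s held 87.2 and 83.8 normalized counts in T-bet+ cDC2s, and the median window higher in cDC1s held 11.5 and 12. Window by window they were less uniform. Both T-bet+ libraries reached the level of T-bet- cDC2s in 43.1% of windows higher in T-bet- cDC2s and 44.6% of those higher in cDC1s. Both lay between the subsets in 27.3% and 24.2%, and both reached the level of cDC1s in 4.8% and 4.2%. The rest were mixed. The sets were chosen on the T-bet- libraries, so these levels are a description.

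The directions fell on different parts of the genome. Promoter windows, within 2000 bases of an annotated start, made up 30.8% of the tested windows, 34.7% of those higher in T-bet- cDC2s and 17.7% of those higher in cDC1s. Intron windows made up 34.1%, 32.6% and 45.1%. Seen from the class, 16.0% of exon windows and 14% of intron windows were higher in cDC1s, against 6.09% of promoter windows. On the T-bet- side the shares were 5.29%, 7.0% and 8.25%. Called windows of both directions were found on every chromosome, in differing shares. Among the autosomes and the X chromosome, 4.32% (chromosome 11) to 9.05% (chromosome 1) of windows were higher in T-bet- cDC2s and 9.14% (X) to 12.8% (chromosome 18) in cDC1s.

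**Figure D1:**
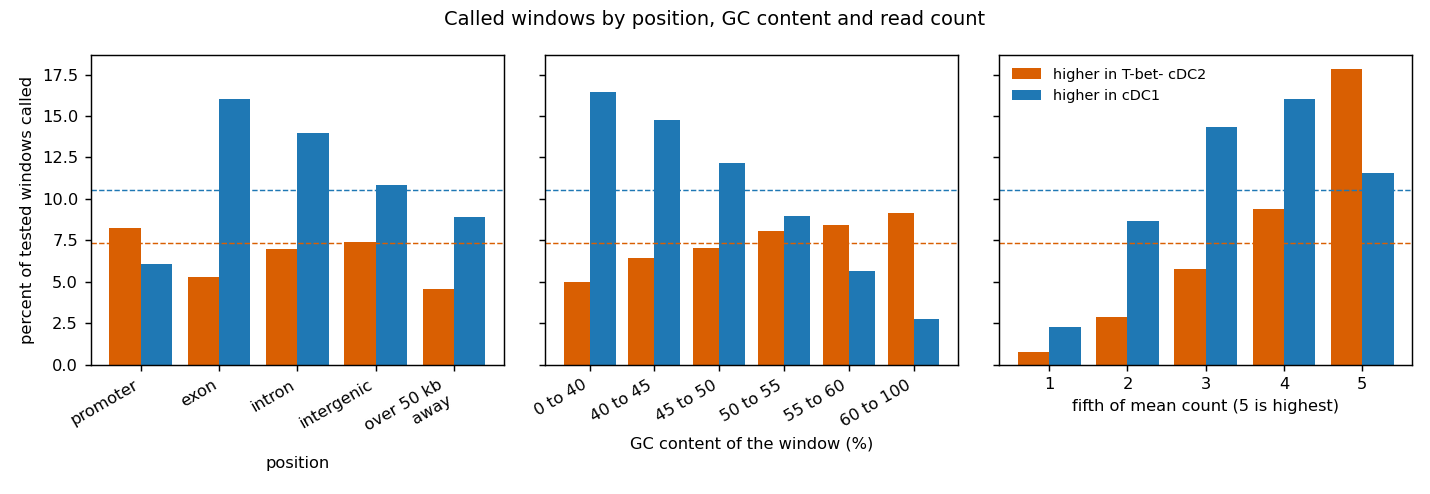
Percent of tested windows called in each direction, by position, by GC content and by mean normalized count in 5 equal groups over the 4 libraries. Dashed lines give the percent over all tested windows. Windows of 60 to 100% GC were higher in cDC1s in 2.77% of cases, and those of up to 40% GC in 16.4%.

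Base composition and read count moved with the direction. The median GC content was 50.7% for windows higher in T-bet- cDC2s, 46.7% for those higher in cDC1s and 49.3% for windows not called. The share of windows higher in T-bet- cDC2s rose from 4.97% at up to 40% GC to 9.14% above 60%, and that higher in cDC1s fell from 16.4% to 2.77%. In windows with the highest counts of 5 equal groups, 17.8% were higher in T-bet- cDC2s and 11.5% in cDC1s, and in the next group 9.41% and 16.0%. Strongly open gene starts shifted as a group. Of 5190 windows within 500 bases of a start and with a mean over 200 normalized counts, 1508 (29.1%) were higher in T-bet- cDC2s and 35 in cDC1s, with a median log2 fold change of 0.40. Windows of that strength over 2000 bases from a start had a median of 0.33. With log ratios centred within bins of mean count, an alternative chosen after the data were seen, 9545 windows were higher in T-bet- cDC2s and 16780 in cDC1s. Whether a general property of the libraries has a part in small differences of strong windows was not tested.

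The markers of the 2 subsets gave a mixed picture in chromatin. *Sirpa*, which encodes the inhibitory receptor that defines cDC2s, had 10 of 18 tested windows higher in T-bet- cDC2s and 0 in cDC1s. Its leading window, 738 bases upstream of the gene's start, held 140.0 and 138 normalized counts in T-bet- cDC2s and 4.18 and 8.05 in cDC1s. The groups were far apart, a 22.6-fold difference (log2 fold change 4.50 ± 0.37 SE, adjusted p = 4.26e-16 in edgeR's test). T-bet+ cDC2s had 112 and 82.8 there. Further windows within the gene, about 3 kb from the start, differed by 1.75- to 3.41-fold.

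*Cx3cr1*, the receptor of fractalkine and a marker of T-bet- cDC2s, had 7 of 29 windows higher in T-bet- cDC2s and 1 in cDC1s. Its leading window, 20.3 kb downstream of the start within an annotated exon, held 103 and 109 normalized counts against 2.09 and 6.90, a 23.5-fold difference (log2 fold change 4.55 ± 0.44, adjusted p = 1.72e-13 in edgeR's test). Here T-bet+ cDC2s were intermediate, at 46.0 and 25.8, and their difference from T-bet- cDC2s passed the test as well (T-bet- against T-bet+ log2 difference 1.56, adjusted p = 0.000116 in the same edgeR fit). The window on the other side, 2.45 kb upstream of the start, held 23.9 and 16.9 against 66.9 and 113. That window is the closest of the called ones to the gene's start. In RNA, *Cx3cr1* was 165-fold higher in T-bet- cDC2s.

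*Csf1r*, the receptor of macrophage colony-stimulating factor, had 3 of 13 windows higher in T-bet- cDC2s and 1 in cDC1s. Its leading window, 4.92 kb upstream, held 33.6 and 32.1 normalized counts against 5.23 and 3.45 (log2 fold change 2.87 ± 0.53, adjusted p = 1.47e-05 in edgeR's test). T-bet+ cDC2s had 7.66 and 9.21, lower than T-bet- cDC2s (T-bet- against T-bet+ log2 difference 1.94, adjusted p = 0.00170 in the same fit). *Adgre1*, which encodes the macrophage antigen F4/80, had 5 of 15 windows higher in T-bet- cDC2s, 4 of them within 2 kb of its start, and 1 in cDC1s. At the start it held 89.0 and 95.4 against 23.0 and 20.7, a 4.20-fold difference.

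*Xcr1*, the chemokine receptor by which cDC1s were sorted, did not have a locus more open throughout in cDC1s. Of its 15 tested windows 1 was higher in cDC1s, 1.36 kb upstream of the start, with 55.4 and 58.8 normalized counts in T-bet- cDC2s and 92.0 and 140 in cDC1s, a 2.02-fold difference (log2 fold change -1.02 ± 0.27, adjusted p = 0.00266 in edgeR's test). The 2 windows about 7.5 kb upstream went the other way. The leading one held 81.4 and 105 against 31.4 and 17.2 (log2 fold change 1.93 ± 0.31, adjusted p = 7.49e-07), and T-bet+ cDC2s had 191 and 112 there. In RNA, *Xcr1* was 94.5-fold lower in T-bet- cDC2s, with 302, 168 and 242 normalized counts against 18970, 20850 and 27500 in cDC1s. *Clec9a*, the dead-cell receptor of cDC1s, had 1 of 5 windows called, at its start, with 17.4 and 16.0 against 69.0 and 118. At both genes the window near the start was higher in cDC1s, by less than the RNA was.

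**Figure D2:**
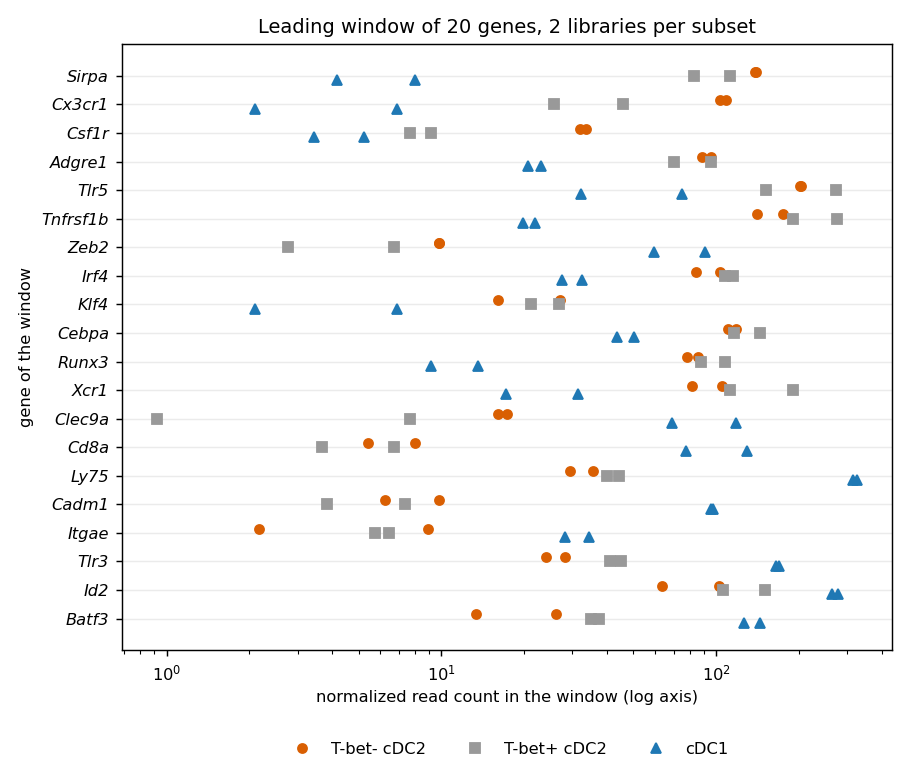
Normalized read count (log axis) in the leading window of 20 genes, with 1 point for each of the 2 libraries of each subset, T-bet+ cDC2s included. T-bet- cDC2s lie above cDC1s at *Sirpa* and *Cx3cr1* and below them at *Zeb2* and from *Clec9a* to *Batf3*, and at *Xcr1* T-bet- cDC2s are the higher.

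Lists of genes were read by the number of their windows called in each direction, a window belonging to the closest protein-coding gene within 50 kb. Among all tested windows with a gene, 7.53% were higher in T-bet- cDC2s and 10.6% in cDC1s. Of the 20 lists, the highest share on the cDC1 side was that of the cDC1 surface and cross-presentation genes, whose 19 genes had 96 of 307 windows (31.3%) higher in cDC1s and 17 (5.54%) in T-bet- cDC2s, with a median log2 fold change of -0.74. These genes were listed as cDC1 genes, so the direction of their RNA was known.

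*Cd8a*, the coreceptor chain that cDC1s share with T cells, had 7 of 11 windows higher in cDC1s. The leading one, 13.6 kb upstream, held 5.43 and 8.02 normalized counts in T-bet- cDC2s and 77.4 and 130 in cDC1s, a 14.9-fold difference (log2 fold change -3.90 ± 0.41, adjusted p = 4.86e-12 in edgeR's test). At the start itself it held 11.9 and 11.6 against 64.8 and 100. *Ly75*, which encodes the uptake receptor DEC-205, had 10 of 18 windows higher in cDC1s. Its leading window, in an intron 6.69 kb from the start, held 29.3 and 35.7 against 314 and 327, while its promoter window differed by only 1.68-fold. *Cadm1*, an adhesion molecule of cDC1s, had 16 of 43 windows higher in cDC1s and 4 in T-bet- cDC2s, and its leading window lay 225 kb from the start in an intron, with 9.77 and 6.24 against 97.3 and 95.4. *Plpp1*, a lipid phosphatase, had the largest fold of the list, 32.3 (3.26 and 0.891 against 64.8 and 70.1), in a window 10.5 kb upstream. *Gcsam* had 9 of 12 and *Wdfy4*, a gene needed for cross-presentation, 9 of 26 windows higher in cDC1s. *Itgae*, which encodes CD103, had 1 of 9, and *Naaa* 0 of 3.

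**Figure D3:**
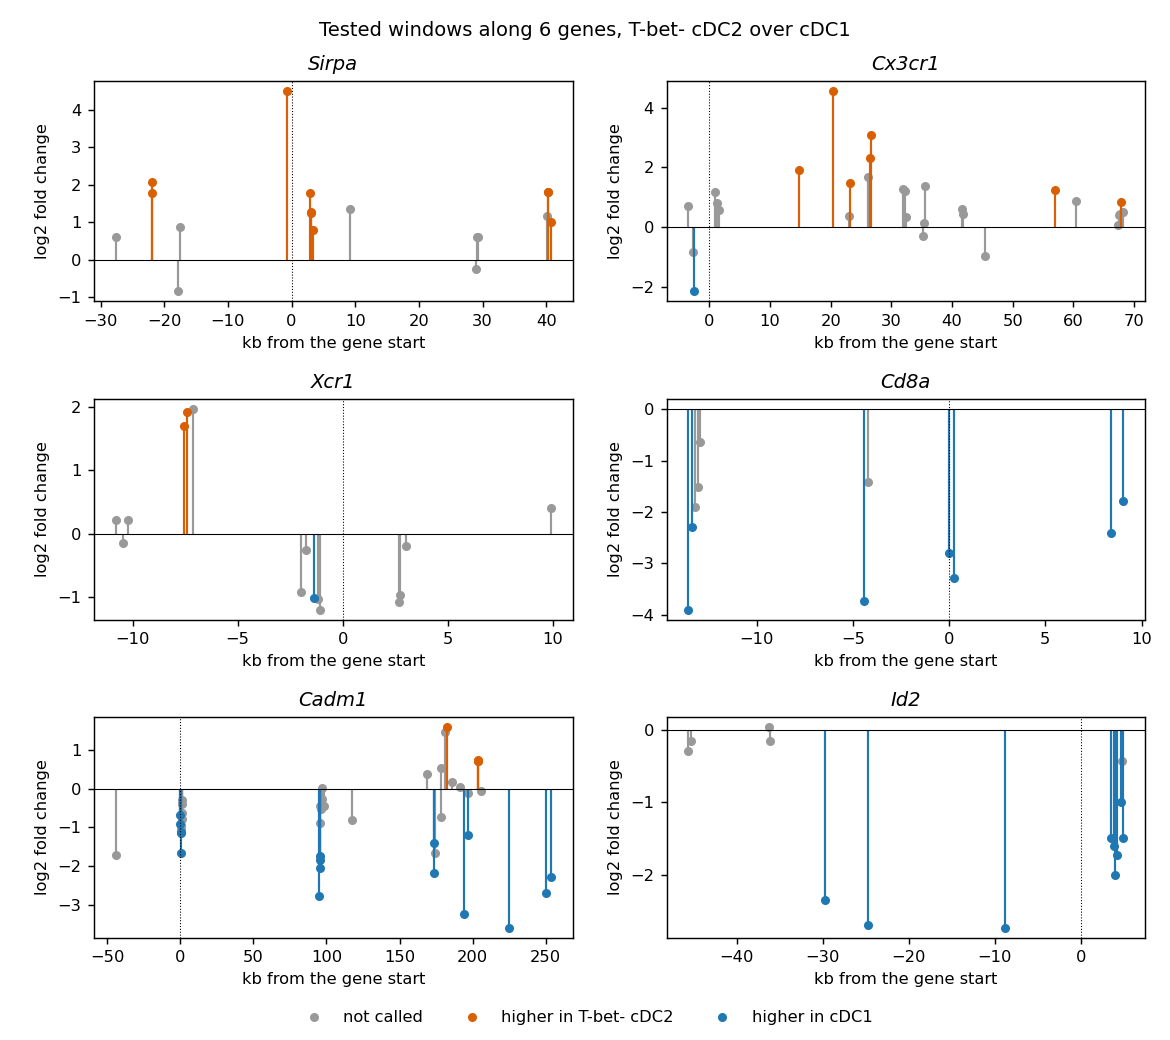
Log2 fold change (T-bet- cDC2 over cDC1) of every tested window of 6 genes against its distance from the gene start in kb, positive downstream. *Sirpa* has windows higher in T-bet- cDC2s alone, *Cd8a* and *Id2* windows higher in cDC1s alone, and *Cx3cr1*, *Xcr1* and *Cadm1* have both.

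The transcription factors of cDC1s had 46 of 275 windows (16.7%) higher in cDC1s and 18 (6.55%) in T-bet- cDC2s. *Id2*, an inhibitor of E proteins, had 9 of 14 windows higher in cDC1s and 0 in T-bet- cDC2s. Of these, 6 lie 3.47 to 4.91 kb downstream of its start. Its leading window held 102 and 63.3 normalized counts in T-bet- cDC2s and 264 and 278 in cDC1s (log2 fold change -1.73 ± 0.22, adjusted p = 2e-09 in edgeR's test). *Batf3*, the AP-1 partner of IRF8, had 5 of 34 windows higher in cDC1s and 2 in T-bet- cDC2s. Its leading window, 2.51 kb from the start, held 26.1 and 13.4 against 144 and 127, and the opposite windows lie 21.3 and 21.7 kb from the start. *Irf8* had 3 tested windows, none of them called, and the closest lies 7.39 kb from its start. There T-bet- cDC2s had 48.8 and 45.5 and cDC1s 36.6 and 35.6 (adjusted p = 0.471), while its RNA was 12.4-fold lower in T-bet- cDC2s. *Etv6*, an ETS repressor, had 13 of 92 windows higher in cDC1s and 11 in T-bet- cDC2s, with the leading one held at 5.43 and 6.24 against 100.4 and 100. *Bcl6* had 6 of 24 and *Zbtb46*, the factor of conventional dendritic cells, 5 of 28 higher in cDC1s and 0 in T-bet- cDC2s. At *Nfil3*, the leading window was higher in T-bet- cDC2s, with 143 and 136 against 27.2 and 24.1.

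The transcription factors of cDC2s had 36 of 296 windows (12.2%) higher in T-bet- cDC2s and 19 (6.42%) in cDC1s. *Runx3* had 1 of 39 windows higher in cDC1s and 10 higher in T-bet- cDC2s, in a group 35.0 to 40.7 kb upstream of the start and another 16.9 to 39.7 kb downstream. Its leading window held 85.8 and 78.4 normalized counts against 13.6 and 9.20 (log2 fold change 2.82 ± 0.36, adjusted p = 1.33e-09 in edgeR's test), and its RNA did not pass the test (log2 fold change 0.16, adjusted p = 0.887). *Zeb2*, a repressor that opposes the cDC1 programme, had 4 windows higher in T-bet- cDC2s, the largest 35.8 kb from the start with 60.8 and 42.8 against 11.5 and 11.5. Its leading window was the 1 called on the cDC1 side, 7.28 kb upstream, with 9.77 and 9.80 against 59.6 and 90.8. *Zeb2* RNA was 131-fold higher in T-bet- cDC2s, with 7816, 2644 and 4683 normalized counts against 12.4, 14.5 and 90.4. *Irf4* had 2 windows in each direction. The leading one, 20.2 kb from the start, held 84.7 and 103 against 32.4 and 27.6, and the 2 higher in cDC1s lie about 16 kb upstream. *Cebpa* had 3 of 10 windows higher in T-bet- cDC2s, the leading one with 111 and 118 against 50.2 and 43.7. *Klf4* had 2 of 10, *Nfix* 2 of 14 and *Relb* 1 of 6, with 0 on the cDC1 side. *Prdm1* had 1 of 33 windows higher in T-bet- cDC2s and 4 in cDC1s, while its RNA was 31.3-fold higher in T-bet- cDC2s. *Notch2* had 6 of 47 higher in T-bet- cDC2s and 5 in cDC1s, and *Nr4a1* 0 and 1 of 15. *Rbpj*, the DNA-binding partner of Notch, had 5 windows in each direction. Its leading window, 14.2 kb upstream, held 70.6 and 72.2 against 4.18 and 13.8, and only 2.87 and 7.36 in T-bet+ cDC2s (T-bet- against T-bet+ log2 difference 3.76, adjusted p = 2.54e-09 in the same edgeR fit). *Tbx21*, *Klf2* and *Cebpb* had 15, 8 and 9 tested windows and none called.

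**Figure D4:**
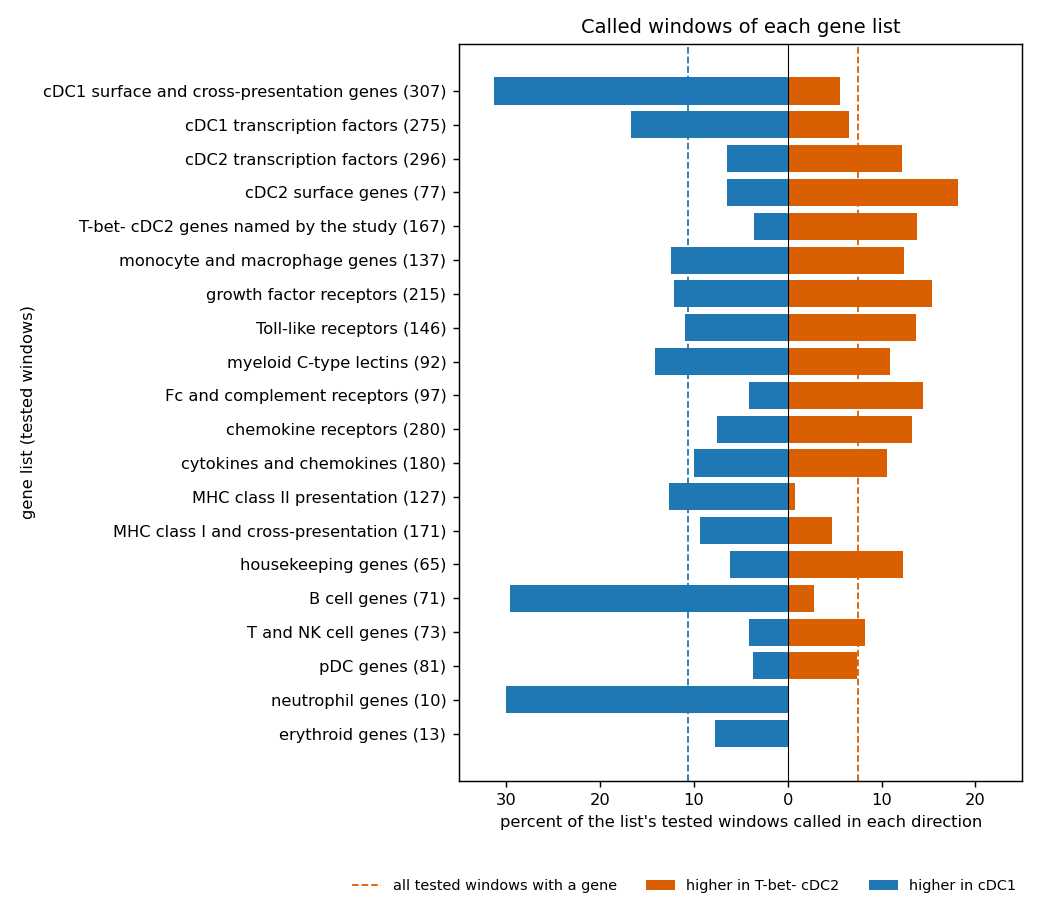
Percent of each list's tested windows called higher in T-bet- cDC2s (right) and in cDC1s (left), with the number of tested windows in parentheses. The dashed lines mark 7.53% and 10.6%, the shares among all tested windows with a gene.

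The surface genes of cDC2s had 14 of 77 windows (18.2%) higher in T-bet- cDC2s and 5 (6.49%) in cDC1s, and *Sirpa* and *Cd300a*, an inhibitory receptor with 4 of its 14 windows, gave all 14 of the former. At *Cd300a* the leading window held 162 and 181 normalized counts against 23.0 and 25.3. All 13 genes of the list had higher RNA in T-bet- cDC2s. Of these, *Cd4*, *Cd209a*, *Dtx1*, *Itgax*, *Cd300lf* and *Ltb* had no window called, with a median log2 fold change of 0.50 over the windows of *Cd4* and 0.65 over those of *Cd209a*, and *Clec10a* and *Esam* had no window at all. *Itgam*, which encodes CD11b, had 1 of 11 windows called, higher in cDC1s with 13 and 21.4 against 42.9 and 82.8, while its RNA was 73.1-fold higher in T-bet- cDC2s. *Mgl2* had its 1 tested window called, also higher in cDC1s (log2 fold change -2.92), against RNA 418-fold higher in T-bet- cDC2s. *Cd7* had 2 of 7 and *Cd300a* 1 of 14 windows higher in cDC1s. The RNA of *Cd7* was 33.4-fold higher in T-bet- cDC2s. Among the genes the study named for T-bet- cDC2s, 23 of 167 windows (13.8%) were higher in T-bet- cDC2s and 6 (3.59%) in cDC1s. These genes were chosen by the study on cells of the same kind, so their direction is not independent. *Ccr2*, *Cd14*, *Tmem176a* and *P2rx7* had no window called. *Clec12a* had 1 of 15, higher in cDC1s (44.5 and 42.8 against 93.1 and 106), and its RNA did not pass the test between these 2 subsets (log2 fold change -0.04, adjusted p = 0.937).

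Toll-like receptors had 20 of 146 windows (13.7%) higher in T-bet- cDC2s and 16 (11%) in cDC1s. *Tlr3*, *Tlr11* and *Tlr12*, which sense double-stranded RNA and the protozoan protein profilin, had 9 of 14, 2 of 9 and 4 of 6 windows higher in cDC1s, and *Tlr3* 1 in T-bet- cDC2s. The start of *Tlr3* held 28.2 and 24.1 normalized counts in T-bet- cDC2s and 165 and 169 in cDC1s, a 6.40-fold difference (log2 fold change -2.68 ± 0.28, adjusted p = 3.59e-12 in edgeR's test). *Tlr5*, *Tlr7*, *Tlr8* and *Tlr9* had 5 of 26, 2 of 7, 3 of 17 and 4 of 7 windows higher in T-bet- cDC2s and 0 in cDC1s, and *Tlr2* had 1 in each direction. At *Tlr8* the window 616 bases from the start held 97.7 and 65.1 against 10.5 and 12.7, a 6.96-fold difference. At *Tlr9*, which senses CpG DNA, the promoter window differed by 1.59-fold (436 and 346 against 247 and 244), while strongly open gene starts as a group had a median log2 fold change of 0.40.

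Fc and complement receptors had 14 of 97 windows (14.4%) higher in T-bet- cDC2s and 4 (4.12%) in cDC1s. *C5ar1*, the receptor of the anaphylatoxin C5a, had 4 of 15, with a leading window of 153 and 159 normalized counts against 15.7 and 16.1 (log2 fold change 3.29 ± 0.30, adjusted p = 1.22e-14 in edgeR's test). *C3ar1* had 3 and 2. Its leading window, 6.89 kb upstream, held 288 and 242 against 39.7 and 28.7, while the window 1.39 kb inside the gene held 60.8 and 52.6 against 150 and 144. Myeloid lectins had 10 of 92 windows (10.9%) higher in T-bet- cDC2s and 13 (14.1%) in cDC1s, while 13 of 17 had higher RNA in T-bet- cDC2s and 2 in cDC1s. In the cluster on chromosome 6, *Clec4a3* had 2 of 6 windows higher in T-bet- cDC2s, the leading one with 157 and 150 against 12.6 and 25.3. *Clec4b2* had 6 of 9 higher in cDC1s, with 15.2 and 17.8 against 120 and 106 at its start.

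Chemokine and positioning receptors had 37 of 280 windows (13.2%) higher in T-bet- cDC2s and 21 (7.50%) in cDC1s. *S1pr1*, which binds sphingosine phosphate, had 5 of 30, its leading window at 111 and 134 normalized counts against 38.7 and 37.9, and T-bet+ cDC2s at 35.4 and 44.2. *Ccr6* went against its RNA. All 5 of its called windows, of 14, were higher in cDC1s, the leading one 1.27 kb upstream of the start with 51.0 and 38.3 against 241 and 262 (log2 fold change -2.50 ± 0.23, adjusted p = 2.32e-14 in edgeR's test). Its RNA was 18.2-fold higher in T-bet- cDC2s, with 422, 641 and 283 against 34.3, 8.72 and 30.9. T-bet+ cDC2s had 203 and 185 in that window and RNA of 1089, 1600 and 1430. So the window did not follow the RNA across the 3 subsets.

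Growth factor receptors had 33 of 215 windows (15.3%) higher in T-bet- cDC2s and 26 (12.1%) in cDC1s. *Tnfrsf1b*, which encodes TNF receptor 2, had 10 of 15 and *Il4ra* 6 of 10 higher in T-bet- cDC2s. Their leading windows, both in introns, held 141 and 175 against 19.9 and 21.9, and 144 and 136 against 19.9 and 19.6. The promoter window of *Tnfrsf1b* went the other way, with 34.7 and 32.1 against 80.5 and 86.2. Cytokine and chemokine genes had 19 of 180 windows (10.6%) higher in T-bet- cDC2s and 18 (10.0%) in cDC1s. *Csf1* had 5 of 11 higher in T-bet- cDC2s. *Il12b*, a subunit of IL-12, had 3 of 7 higher in T-bet- cDC2s, the leading one at 79.2 and 62.4 against 15.7 and 12.7, and 1 higher in cDC1s, at 46.7 and 51.7 against 106 and 125. Its RNA was 3.59-fold lower in T-bet- cDC2s.

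MHC class II genes had 1 of 127 windows (0.787%) higher in T-bet- cDC2s and 16 (12.6%) in cDC1s. In RNA, 7 of 13 of these genes were higher in T-bet- cDC2s and 0 in cDC1s. *Ciita*, the coactivator of these genes, had 7 of 12 higher in cDC1s and the ubiquitin ligase gene *March1* 5 of 43. The leading window of *Ciita*, 19.3 kb from the start, held 33.6 and 22.3 normalized counts against 94.1 and 114, a 3.75-fold difference, and its RNA did not pass the test (log2 fold change -0.08, adjusted p = 0.872). MHC class I and cross-presentation genes had 8 of 171 (4.68%) and 16 (9.36%), of which *Wdfy4* alone gave 9. Housekeeping genes had 8 of 65 windows (12.3%) higher in T-bet- cDC2s, 6 of them at *Eef1a1*, and 4 in cDC1s, with a median log2 fold change of 0.24.

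Markers of other cells were read in the same way. B cell genes had 21 of 71 windows (29.6%) higher in cDC1s and 2 in T-bet- cDC2s. *Ebf1* gave 16 of the 21, with a leading window of 20.6 and 23.2 normalized counts in T-bet- cDC2s and 203 and 250 in cDC1s, while *Blk* had none called. *Ebf1* and *Pax5* had too few RNA reads to be tested in these subsets. T and NK cell genes had 6 and 3 of 73 windows called, pDC genes 6 and 3 of 81, neutrophil genes 0 and 3 of 10, and erythroid genes 0 and 1 of 13, T-bet- cDC2s first. Monocyte and macrophage genes had 17 of 137 (12.4%) in each direction. *Vcan* had 4 of 12 higher in T-bet- cDC2s and *Fn1* 5 of 10 higher in cDC1s, while *Fcgr1* and *Mertk* had none. In RNA, 8 of 15 monocyte and macrophage genes and 4 of 6 neutrophil genes were higher in T-bet- cDC2s and 0 in cDC1s. What part other cells have in the sorted samples was not tested, and fewer cells of a type cannot be told apart from less open chromatin or less RNA per cell.

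The windows with the largest folds were chosen by a fixed rule, 12 in each direction, each averaging 50 or more normalized counts and with the 2 subsets apart. On the T-bet- side they ranged from 15.3-fold at *Arhgef10l* to 36.5-fold at *Tmem131l*, and included *Cx3cr1*, *Sirpa*, *Mapkapk3*, a kinase of the p38 pathway, *St8sia1*, a sialyltransferase, and *Pdgfrb*. The window of *Tmem131l*, 155 kb from the gene's start, held 243 and 324 against 7.32 and 8.05 (log2 fold change 5.19 ± 0.31, adjusted p = 3.08e-22 in edgeR's test). *Arhgef10l*, a guanine nucleotide exchange factor, and *St8sia1* also had higher RNA in T-bet- cDC2s (log2 fold change 7.95 and 4.83, adjusted p = 1.19e-05 and 0.000151 in edgeR's test), as had *Cx3cr1*, *Sirpa*, *Pdgfrb* and *Mapkapk3*. *Gramd1b*, *Ssbp2* and *Osbpl8* did not pass, and *Tmem131l*, *Ctcfl* and *Samd13* have no tested RNA.

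On the cDC1 side the folds were 35.9 at *Olfr715* to 66.2 at *Usp8*. The window of *Fnip2*, in an intron 23.6 kb from the start, held 2.17 and 8.02 normalized counts in T-bet- cDC2s and 358 and 328 in cDC1s (log2 fold change -5.97 ± 0.35, adjusted p = 2.21e-22 in edgeR's test). In T-bet+ cDC2s it held 8.62 and 0.921. The windows of *Tmpo*, *Slc30a7* and *Gng2* were as nearly empty in T-bet- cDC2s, with 1.09 to 4.46, against 129 to 217 in cDC1s. *Fnip2* had lower RNA in T-bet- cDC2s (log2 fold change -3.90, adjusted p = 0.00307 in edgeR's test), as had *Txndc15*, *Mast4* and *Gng2*, while *Usp8*, *Tmpo*, *Slc30a7*, *Rock2*, *Ppm1k* and *Cep295* did not pass, and *Lemd1* and *Olfr715* have no tested RNA. The closest gene need not be the one a window serves.

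Some loci held many called windows. *Foxp1*, a transcription factor, had 22 of 141 windows higher in T-bet- cDC2s and 22 in cDC1s, and the gene model *Gm20388*, with 263 windows, 23 (8.75%) and 30 (11.4%), near the shares among all windows with a gene. *Bach2*, *Xylt1* and *Arhgap26* had 21 of 103, 20 of 50 and 20 of 94 higher in T-bet- cDC2s, against 10, 4 and 9. *Myo1e*, a myosin, had 15 of 43 and *Noct* 14 of 34 with 3 and 0 on the other side, and *Myo1e* RNA was 105-fold higher in T-bet- cDC2s. The RNA of *Foxp1* and *Bach2* was 3.05- and 7.19-fold higher in T-bet- cDC2s (adjusted p = 0.000648 and 0.0219 in edgeR's test). That of *Xylt1*, *Arhgap26* and *Noct* did not pass the test. On the cDC1 side, *Dip2c* had 30 of 64, *Nsmce2* 23 of 50, *Vps13b* 20 of 54 and *Exoc4* 18 of 53, with 2, 2, 2 and 1 in T-bet- cDC2s. Of these 4 genes none had a difference in RNA that passed the test (adjusted p = 0.157, 0.569, 0.555 and 0.833 in edgeR's test), while *Sgms1*, a sphingomyelin synthase with 19 of 102, and *Cdk14*, with 20 of 80, had lower RNA in T-bet- cDC2s (log2 fold change -1.41 and -1.96).

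The letters of the windows differed between the directions. An ETS-IRF composite was found in 14.6% of windows higher in cDC1s, 5.69% of those higher in T-bet- cDC2s, 6.11% of those not called and 6.97% of all tested windows, on either strand. An IRF response element was found in 11.3%, 4.69%, 5.08% and 5.70%, and an AP-1-IRF composite (GAAATGANT) in 1.95%, 1.02%, 0.876% and 1.00%. These motifs overlap in their letters. In windows higher in cDC1s the 3 motifs were 2.09, 1.98 and 1.95 times as frequent as in all tested windows. Motifs of the T-bet- side were of other families. AP-1 matches were found in 16.3% of windows higher in T-bet- cDC2s, 11.3% of those higher in cDC1s and 8.16% of all tested windows. C/EBP matches were found in 10.4%, 5.17% and 5.84%, Runx matches (TGTGGTT) in 9.51%, 5.53% and 5.35%, Klf matches (GGGTGTGG) in 3.93%, 1.15% and 1.89%, and NF-kB matches (GGGANTTCC) in 2.49%, 0.978% and 1.12%. PU.1 matches were more frequent in both sets than among all windows, with 8.16%, 9.52% and 5.81%.

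**Figure D5:**
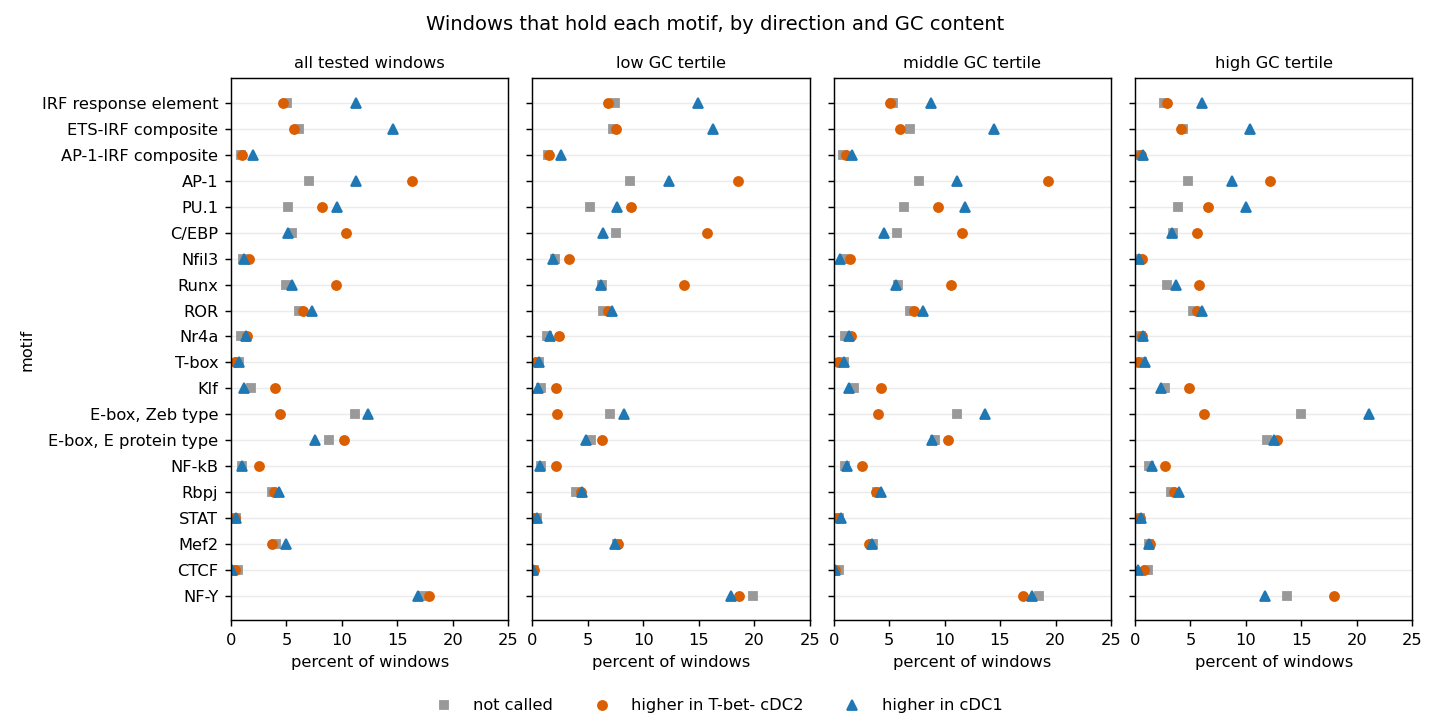
Percent of windows that hold each of 20 motifs on either strand, for windows higher in T-bet- cDC2s, higher in cDC1s and not called, over all tested windows and within 3 equal groups of window GC content. IRF-type motifs stand to the right in cDC1 windows and AP-1, C/EBP and Runx in T-bet- windows in each panel.

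The E-box CAGGTG, the type that Zeb factors bind, was rarer on the T-bet- side. It was found in 4.38% of windows higher in T-bet- cDC2s, against 12.4% of those higher in cDC1s, 11.1% of those not called and 10.8% of all. The E-box CAGCTG did not share this, with 10.2%, 7.58%, 8.87% and 8.83%. T-box matches (AGGTGTGA) were found in 0.345%, 0.745%, 0.737% and 0.709%, and their letters overlap those of CAGGTG. Rbpj matches (TGGGAAA) were found in 3.85%, 4.31%, 3.69% and 3.76%, and NF-Y matches (CCAAT) in 17.8%, 16.8%, 17.3% and 17.3%. CTCF matches were rarer in both called sets (0.386% and 0.108%) than in windows not called (0.637%). Since GC content differed between the sets, shares were also taken within 3 equal groups of GC content. The ETS-IRF composite was found in 16.2%, 14.4% and 10.3% of windows higher in cDC1s in the low, middle and high group, against 7.54%, 6.00% and 4.12% of those higher in T-bet- cDC2s. C/EBP matches were found in 15.8%, 11.6% and 5.56% of windows higher in T-bet- cDC2s against 6.33%, 4.49% and 3.35% of those higher in cDC1s. CAGGTG was found in 2.2%, 4.04% and 6.19% against 8.30%, 13.6% and 21.1%. Among windows over 2000 bases from a start the shares were 15.0% (cDC1s) and 6.47% for the ETS-IRF composite and 11.5% (T-bet- cDC2s) and 5.26% for C/EBP. Windows are not replicates and no test was made of these shares.

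RNA from other libraries of the same subsets was set beside the windows. Of 14377 genes tested in the spleen, 1388 (9.65%) were higher in T-bet- cDC2s and 891 (6.20%) in cDC1s at an adjusted p under 0.05 in edgeR's test. Among 1857 genes with RNA whose called windows were all higher in T-bet- cDC2s, 410 (22.1%) had higher RNA in T-bet- cDC2s and 56 (3.02%) in cDC1s, with a median log2 fold change of 0.25. Among 2352 genes whose called windows were all higher in cDC1s, 110 (4.68%) and 349 (14.8%) did, with a median of -0.32. Of 1974 genes with windows of both kinds, 290 (14.7%) and 172 (8.71%) did, and of 3712 with tested windows but none called, 271 (7.30%) and 152 (4.10%). The shares grew with the number of windows. With 3 or more windows in 1 direction alone, 150 of 437 genes (34.3%) on the T-bet- side had higher RNA there, and 170 of 728 (23.4%) on the cDC1 side. With a single window they were 163 of 954 (17.1%) and 113 of 1111 (10.2%). Most genes with a called window therefore had no difference in RNA that passed the test. Single RNA libraries moved these counts. Of genes with T-bet- windows alone, 128 had higher RNA in cDC1s without T-bet- cDC2 RNA replicate 3, 34 without replicate 2 and 30 without cDC1 RNA replicate 2. Of genes with cDC1 windows alone, 70 and 73 had higher RNA in T-bet- cDC2s without cDC1 RNA replicate 1 and 2, and 219 had higher RNA in cDC1s without replicate 2.

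The set of windows limits what an absent call means. With the tested protein-coding genes in 10 equal groups by RNA, 59.9% of the highest group had a window within 2000 bases of the gene's start, and 42.2% of the lowest. *Irf8*, *Flt3*, *Actb* and *Cd74* were among genes without one. A gene without a called window can therefore not be taken as closed or unchanged here. In addition, 25.7% of windows overlap a neighbour and share its reads, so windows of 1 peak are not independent.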

How the data were processed

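ATAC-seq libraries of spleen cDC1s and of cDC2s with and without T-bet, 2 of each, and 9 spleen RNA libraries were used. The deposited tables hold counts of reads. Per the study's methods, the authors aligned ATAC-seq reads to mm10 with Bowtie2 2.2.5, kept unique alignments, shifted reads for the transposase, called peaks with MACS2 2.1.1.20160309 on pooled replicates, kept those reproducible in any subset, and counted windows of 150 bases around summits. RNA reads were aligned with HISAT2 2.1.0 and counted per gene, with the strand setting not given in the sources used here. The score column of the deposited peak file is 0 throughout, and the −log10 p of the deposited summit file, 1 value per summit over pooled replicates, was not tested. Labels were followed where a methods sentence on the RNA gates has RFP the other way.

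Counts were filtered with filterByExpr, scaled by TMM and fitted with edgeR 4.0.16 (R 4.3.3), all 6 ATAC-seq libraries together with 3 residual degrees of freedom, without covariates. Benjamini-Hochberg adjustment ran over all windows. An exact permutation test of 2 against 2 cannot go below p = 0.333 and was not used. The depth was 7270164 to 10081555 reads in windows per library. On simulated counts with 200 of 166547 windows changed 4-fold, 110 were recovered with 1 false call, and 76 with 0 false calls by DESeq2 1.42.0. Far more windows were called in the data (29773), so recovery and false calls there can differ. Genes are those of GENCODE. A leading window is a gene's tested window with the smallest p.

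The text names genes of 20 lists, the 12 largest windows in each direction (1 per gene) and the 10 genes with the most called windows in each direction. Members, lists and motifs were chosen with earlier results of these data known. Alternatives were DESeq2, other scalings and filters, other thresholds, other gene assignments, GC centring, a replicate block and leaving out each library. Centring within bins of mean count and the replicate block in RNA were added after the data were seen. Results of some listed genes are not reported here.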

Additional observations from a re-analysis of the deposited data

How the results depend on the processing

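Among the 24 largest windows and the 169 called leading or promoter windows of listed genes, no direction reversed under any alternative run. Other called windows named in the text were not run, and windows without a call were not checked for a reversed direction. The 24 largest windows kept their call wherever they could be tested, which with at least 10 counts in every library was 2 of them. Of 169 called leading or promoter windows of listed genes, 36 lost the call with DESeq2, 17 with centring within bins of mean count and 10 with library size alone. Leaving out 1 library lost 42 without cDC1 replicate 2, 31 without cDC1 replicate 1, and 35 and 32 without T-bet- cDC2 replicates 1 and 2. DESeq2 called 7302 windows higher in T-bet- cDC2s and 9841 in cDC1s, a minimum of 10 counts in every library left 7162 and 8780, and an adjusted p under 0.05 with no minimum fold gave 19523 in T-bet- cDC2s. Leaving out 1 library gave 6734 to 9031 windows higher in T-bet- cDC2s and 10912 to 13267 in cDC1s, and 5173 to 6988 and 8157 to 9967 whole peaks. Windows of cDC2 transcription factors higher in cDC1s numbered 12 by the closest start site and 8 with DESeq2, and those of cDC2 surface genes 1 by the closest gene of any biotype and 3 with DESeq2. Why these counts moved was not tested, beyond the fewer libraries or windows.

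Same-numbered ATAC-seq libraries did not deviate together (correlation 0.019), so the numbers were not taken as pairs. For same-numbered RNA libraries of T-bet- cDC2s and cDC1s the correlations were -0.42, -0.098 and -0.49. Why these were negative was not tested. With the replicate block, 11885 and 16967 windows were called, and 32 genes with T-bet- windows alone had higher RNA in cDC1s. Leaving out 1 RNA library gave 30 to 128 of these genes, 70 to 130 with cDC1 windows alone and higher RNA in T-bet- cDC2s, and 219 to 505 with cDC1 windows alone and higher RNA in cDC1s.

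In the low, middle and high group of GC content, IRF response elements were found in 15.0%, 8.81% and 6.07% of windows higher in cDC1s, and ETS-IRF composites in 16.2% and 10.3% in the low and high group. AP-1 matches were found in 18.5%, 19.3% and 12.1% of windows higher in T-bet- cDC2s, and C/EBP matches in 15.8%, 11.6% and 5.56%. Of 5 equal groups of windows by count, 0.766% and 2.25% were called in the lowest.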
